A study of Rattus norvegicus with 6 samples.

Results

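The 4 genes described here encode cytochrome P450 enzymes that turn the liver carcinogens diethylnitrosamine (DEN) and 2-acetylaminofluorene (2-AAF) into reactive products, or that belong to the same carcinogen-inducible family: Cyp1a1 (ENSRNOG00000019500), Cyp1a2 (ENSRNOG00000016173), Cyp1b1 (ENSRNOG00000040287) and Cyp2e1 (ENSRNOG00000012458). They were named by their Ensembl gene IDs for their known role in activating these carcinogens, with earlier results of these data known, and all 4 were found among the 43360 IDs counted in each library. The pairing of these IDs with symbols came with the choice of genes. The RefSeq table used here holds 0 Ensembl IDs and could not test the pairing.

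Whole-liver poly(A) RNA came from male rats of the inbred Fischer-344 strain, of about 180 g at the start, after 16 weeks of treatment. Control rats received only the oral vehicle, 0.5% carboxymethyl cellulose. HCC rats received DEN at 50 mg/kg by weekly intraperitoneal injection, followed by oral 2-AAF at 25 mg/kg, a combination used to induce hepatocellular carcinoma (HCC). HCC/NAC rats received the same carcinogens and also a daily oral dose of 300 mg/kg N-acetylcysteine (NAC), a thiol antioxidant from which cells make glutathione. The design lists 18 rats in 3 groups, and per the labels each group's 2 libraries were made from pooled RNA of 5 animals, which that label calls mice although the organism is given as rat. The labels do not say whether the 2 libraries of a group held different animals, so p-values measure only the spread between libraries, which may be technical. The labels also do not say whether tumour nodules or the surrounding liver was taken, nor how long before sampling the last carcinogen dose was given.

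P450 enzymes are heme proteins of the endoplasmic reticulum that insert oxygen into foreign and endogenous compounds. CYP2E1, made mainly by hepatocytes around the central vein, oxidises small molecules such as ethanol and short-chain nitrosamines, and its oxidation of DEN releases an ethylating species that attacks DNA. CYP1A2, also a centrilobular hepatocyte enzyme, N-hydroxylates aromatic amines, the first activating step for 2-AAF. CYP1A1 and CYP1B1 oxidise polycyclic aromatic compounds. Their genes are near silent in liver until the aryl hydrocarbon receptor (AhR) is activated, and Cyp1a2 is a further AhR target. Aromatic amines such as 2-AAF are among the compounds known to induce the family in rat liver.

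The carcinogen-treated livers showed opposite changes within this group. In HCC livers Cyp1a1 rose 17.1-fold over control, whereas Cyp1a2 fell to 13.0-fold below control and Cyp2e1 to 3.66-fold below it. In HCC/NAC livers all 3 lay between control and HCC: Cyp1a1 was 5.18-fold above control, Cyp1a2 was 5.62-fold below it and Cyp2e1 was 1.76-fold below it. Cyp1b1 was weakly expressed, and none of its 3 comparisons passed the test. In HCC against control 3 of the 4 genes were called (1 higher, 2 lower), beside 34.8% of the 16898 tested IDs (17.0% higher, 17.8% lower). The CPM of the 2 groups did not overlap for any of the 4 genes, which was also so for 72.4% of tested IDs. The calls are from edgeR's quasi-likelihood test at a Benjamini-Hochberg adjusted p under 0.05 over all tested IDs. Levels are in CPM, the usual count scaled to a common library size, here after TMM adjustment, a scaling that trims extreme genes. In whole tissue, fewer cells of a type and less RNA per cell cannot be told apart.

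**Figure D1:**
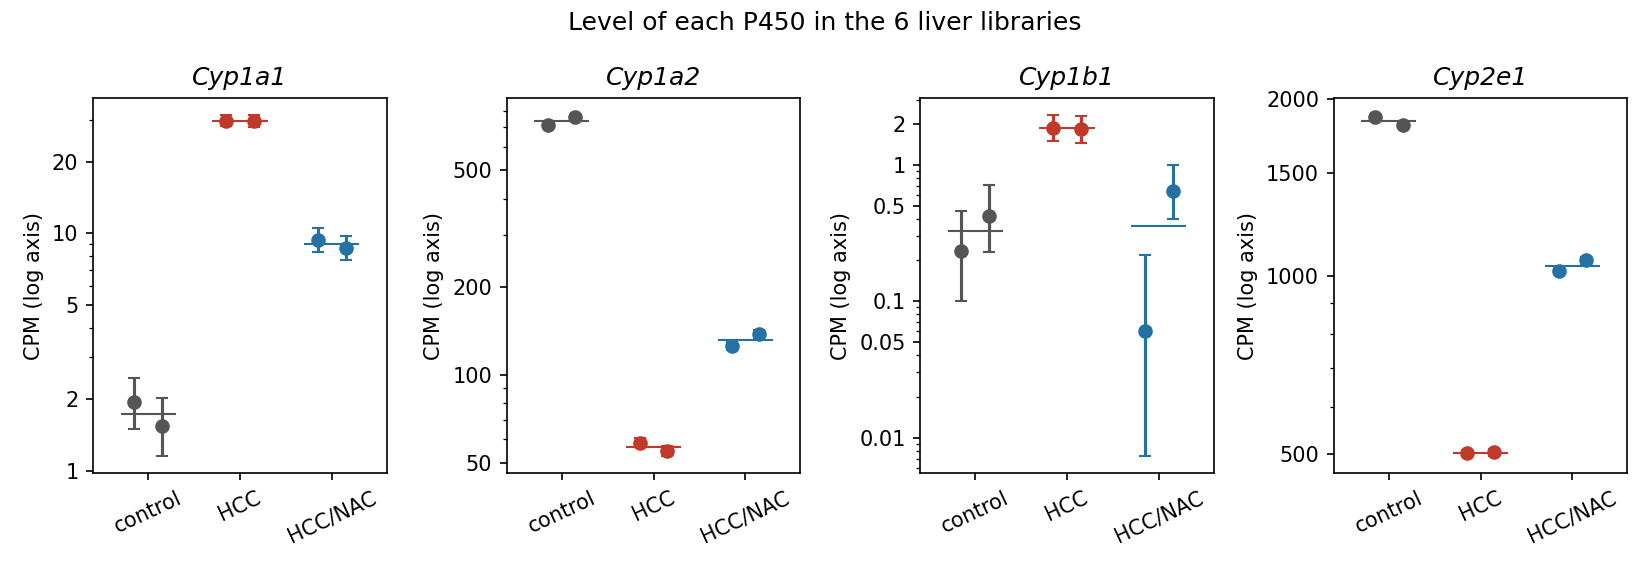
CPM (log axis) of each gene in the 2 libraries of each group, with bars for the exact Poisson 95% interval of the count and a line at the group mean. Cyp1a1 is highest in HCC, Cyp1a2 and Cyp2e1 are lowest in HCC, and the HCC/NAC libraries of these 3 genes lie between both other groups. The 2 HCC/NAC libraries of Cyp1b1 lie far apart.

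The libraries held 33917707 to 37717373 counts. TMM factors were 0.91 to 0.92 in the control and HCC/NAC libraries and 1.18 to 1.20 in the HCC libraries. Without these factors the median log2 fold change of all tested IDs moved from 0.05 to 0.42 in HCC against control and from -0.05 to -0.42 in HCC/NAC against HCC. The split of calls moved with it, from 2876 higher and 3007 lower to 5398 and 1536 in the former comparison, and from 1899 and 2787 to 783 and 5811 in the latter. The 9 calls on Cyp1a1, Cyp1a2 and Cyp2e1 kept their direction and significance on that scale, but their sizes moved. In HCC/NAC against HCC the log2 fold changes were -2.09 for Cyp1a1, 0.84 for Cyp1a2 and 0.68 for Cyp2e1, beside -1.72, 1.21 and 1.06. In HCC against control they were 4.47, -3.33 and -1.50, beside 4.09, -3.70 and -1.87. Those in HCC/NAC against control moved little. The deposited files of the control libraries carry another name prefix than those of the 4 carcinogen-treated libraries. If the prefix marks a batch, batch and carcinogen treatment cannot be told apart, whereas HCC and HCC/NAC share it. Even so, the HCC libraries detected 20317 and 20550 IDs and the HCC/NAC libraries 17529 and 17684. IDs with 1 to 5 counts numbered 2847 and 3364 in HCC, and 632 and 708 in HCC/NAC. The part of this in HCC/NAC against HCC was not tested. Per the file headers, the alignments of 5 libraries each name a pair of consecutively numbered inputs, while that of HCC replicate 1 names inputs 8 and 13. Whether both belong to that library cannot be told from the files. Without it, the log2 fold changes in HCC against control were 4.09 for Cyp1a1, -3.75 for Cyp1a2 and -1.87 for Cyp2e1. In HCC/NAC against HCC they were -1.74, 1.24 and 1.03 for the same genes. Without HCC replicate 2 instead, they were 4.10, -3.65 and -1.87 in HCC against control and -1.74, 1.14 and 1.04 in HCC/NAC against HCC. Calls over all IDs in the latter comparison fell when either HCC library was left out, which leaves 1 in that group. Symbols could not be paired with other IDs, so liver and cell type markers, the other genes of the AhR pathway, P450 reductase and the conjugating enzymes of 2-AAF were not analysed here.

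Cyp2e1, the enzyme that activates DEN, had 64458 and 59854 counts in the control libraries, or 1866 and 1808 CPM. In HCC livers it had 22570 and 20149 counts, or 501 and 503 CPM. In HCC/NAC livers it had 33893 and 34638 counts, or 1021 and 1066 CPM. The 3 groups did not overlap, and the replicates of a group lay at most 1.04-fold apart, so each group difference was larger than the spread between replicates. The mean level fell from 1837 ± 41.0 (SD, n = 2) CPM in control to 502 ± 1.34 (SD, n = 2) CPM in HCC (log2 fold change -1.87 ± 0.04 SE; adjusted p = 2.83e-12, edgeR). With NAC it was 1044 ± 31.8 (SD, n = 2) CPM, which was 2.08-fold above HCC (log2 fold change 1.06 ± 0.04 SE; adjusted p = 1.62e-09, edgeR). It remained below control (log2 fold change -0.82 ± 0.04 SE; adjusted p = 4.02e-09, edgeR). Of the 7485 tested IDs with a mean of at least 10 CPM, 147 had a lower fitted fold change than Cyp2e1 in HCC against control, while 1625 had a lower one in HCC/NAC against control.

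Cyp1a2, which starts the activation of 2-AAF, had larger fold changes against control than Cyp2e1. The control libraries had 24628 and 25234 counts, or 713 and 762 CPM. The HCC libraries had 2636 and 2194 counts, or 58.5 and 54.8 CPM. The HCC/NAC libraries had 4151 and 4469 counts, or 125 and 138 CPM. Again no library of 1 group reached the range of another, and replicates lay at most 1.10-fold apart. Cyp1a2 fell by 3.70 ± 0.07 (SE) on the log2 scale in HCC against control (adjusted p = 1.33e-12, edgeR), from 738 ± 34.6 to 56.6 ± 2.66 CPM (SD, n = 2 each). Of the 7485 IDs with a mean of at least 10 CPM, 37 had a lower fitted fold change, and 119 passed the test with a fall of at least 4-fold. In HCC/NAC livers the level was 131 ± 8.84 CPM (SD, n = 2), 2.32-fold above HCC (log2 fold change 1.21 ± 0.06 SE; adjusted p = 6.37e-08, edgeR). Against control it was still lower by far (log2 fold change -2.49 ± 0.06 SE; adjusted p = 3.56e-11, edgeR), and 73 of the 7485 IDs had a lower fitted fold change in that comparison.

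Since Cyp1a2 and Cyp2e1 changed in the same directions in all 3 comparisons, the RefSeq sequence just upstream of each start site (build GRCr8) is shown, 250 bases long and ending at the base before the start. Capitals mark the TATA box letters TATAAA, searched on both strands. Cyp1a2 lies at chr8:66978150-66978399 on the minus strand and Cyp2e1 at chr1:205269717-205269966 on the plus strand.
Cyp1a2 upstream: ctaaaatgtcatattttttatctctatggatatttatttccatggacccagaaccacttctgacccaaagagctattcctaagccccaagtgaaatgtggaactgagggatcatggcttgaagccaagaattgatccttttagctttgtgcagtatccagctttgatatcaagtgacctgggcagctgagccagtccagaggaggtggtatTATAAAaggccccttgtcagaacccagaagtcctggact
Cyp2e1 upstream: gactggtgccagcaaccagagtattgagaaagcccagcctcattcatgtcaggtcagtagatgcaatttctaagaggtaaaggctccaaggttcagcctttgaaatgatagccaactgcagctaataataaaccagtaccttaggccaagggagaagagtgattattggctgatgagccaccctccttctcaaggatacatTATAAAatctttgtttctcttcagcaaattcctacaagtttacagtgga
Each window held 1 match, with its first base 39 bases before the start in Cyp1a2 and 49 bases before it in Cyp2e1. Of the 33469 upstream windows of the same length in the table, 12.9% held this motif. Neither window held the core of the AhR binding element, GCGTG, which 25.9% of the windows held on either strand, or GTTAAT, the half-site of the liver factor HNF1, which 6.45% held. A match is a description of letters, and the lack of one says only that those letters are not in this window.

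Cyp1a1, the AhR target that is barely transcribed in untreated liver, went the other way. It had 67 and 51 counts in the control libraries, or 1.94 and 1.54 CPM. In HCC livers it had 1344 and 1190 counts, or 29.8 and 29.7 CPM. In HCC/NAC livers it had 312 and 282 counts, or 9.40 and 8.68 CPM. The lowest HCC library was 15.3-fold above the highest control library, and the lowest HCC/NAC library was 4.47-fold above it. Cyp1a1 rose by 4.09 ± 0.20 (SE) on the log2 scale in HCC against control (adjusted p = 7.89e-09, edgeR), and 806 of the 16898 tested IDs, or 4.77%, had a higher fitted fold change. Among the 7485 IDs with a mean of at least 10 CPM, 51 had a higher one. With NAC it was 3.29-fold lower than in HCC (log2 fold change -1.72 ± 0.17 SE; adjusted p = 1.23e-05, edgeR), beside 16.5% of tested IDs called lower in this comparison. It remained above control, at 9.04 ± 0.51 against 1.74 ± 0.28 CPM (SD, n = 2 each; log2 fold change 2.37 ± 0.20 SE; adjusted p = 1.07e-06, edgeR).

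**Figure D2:**
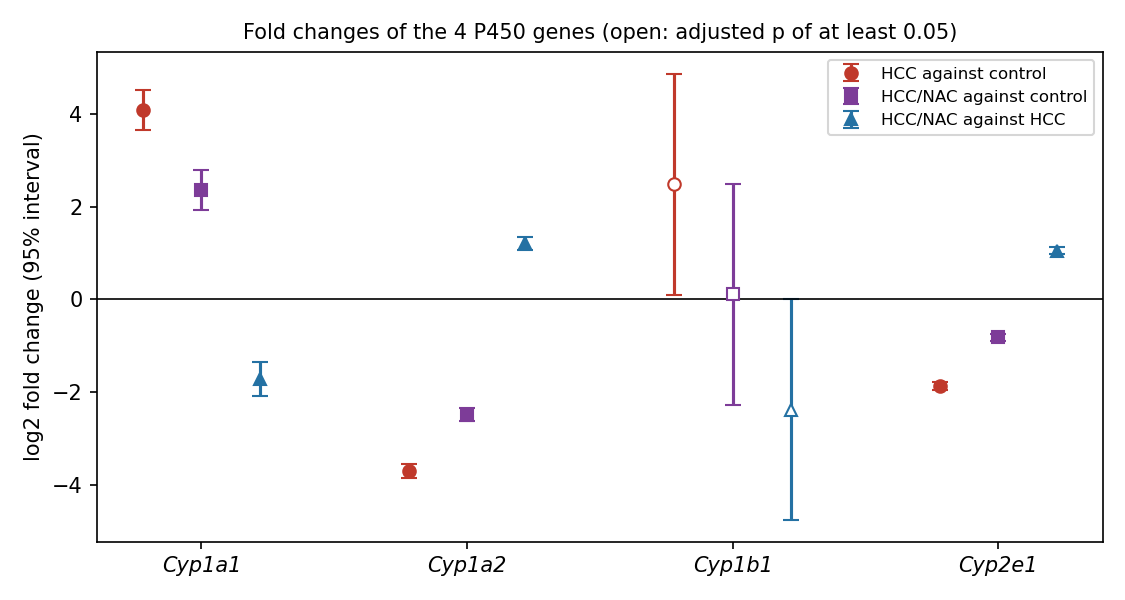
Log2 fold change of each gene in the 3 comparisons, with the 95% interval from the edgeR fit; open symbols mark an adjusted p of at least 0.05. Cyp1a1 mirrors Cyp1a2 and Cyp2e1 in sign in each comparison, and the 3 intervals of Cyp1b1 are wide.

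In HCC/NAC against control 3 of the 4 genes were called, beside 46.2% of tested IDs. In HCC/NAC against HCC it was also 3 of the 4, beside 27.7% (11.2% higher, 16.5% lower). The CPM of the groups did not overlap for 3 of the 4 genes in the former comparison, beside 70.1% of tested IDs, and for all 4 in the latter, beside 65.9%. Each of the 3 called genes was changed in HCC, was closer to control with NAC and still differed from control. The pattern of Cyp1a1 (higher than control in both treated groups, and lower with NAC than without) was shared by 361 IDs, or 2.14% of those tested. The reverse pattern of Cyp1a2 and Cyp2e1 was shared by 374 IDs, or 2.21%. The 3 comparisons use the same 6 libraries in pairs of groups and are not independent of one another.

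Ratios of counts within a library do not depend on how libraries are scaled, and gene length cancels when 1 ratio is compared between libraries. Cyp1a1 and Cyp1a2 are next to each other in the RefSeq gene order, with 0 genes starting between them, and their ratio differed more between groups than the other ratios examined. How the counting treated reads that match both paralogs is not stated. For every 100 Cyp1a2 counts there were 0.272 and 0.202 Cyp1a1 counts in the control libraries. This number was 51.0 and 54.2 in HCC and 7.52 and 6.31 in HCC/NAC livers. The mean ratio was thus 224-fold higher in HCC than in control and 7.64-fold lower with NAC than without. The groups did not overlap, but the exact two-sided permutation test of 2 against 2 libraries gave p = 0.333, the smallest it can give.

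Relative to Cyp2e1, Cyp1a2 was lower in the carcinogen-treated livers, with 38.2 and 42.2 counts per 100 Cyp2e1 counts in control and 11.7 and 10.9 in HCC livers. This is a 3.56-fold lower mean ratio in HCC. In HCC/NAC livers the ratio was 12.2 and 12.9, which is 1.12-fold above HCC and 3.19-fold below control. With NAC both genes were therefore higher by similar factors, 2.32-fold and 2.08-fold, and the gap between them that is seen in HCC was also seen in HCC/NAC. Cyp1a1 per 100 Cyp2e1 counts was 0.104 and 0.0852 in control, 5.95 and 5.91 in HCC and 0.921 and 0.814 in HCC/NAC livers. The same exact permutation test again gave p = 0.333, its smallest value, for each of these differences. Cyp1b1 per 100 Cyp1a1 counts, the last of the 4 ratios examined in 3 comparisons each, was 11.9 and 27.5 in control, 6.25 and 6.13 in HCC and 0.641 and 7.45 in HCC/NAC livers. Its HCC and HCC/NAC libraries overlapped (exact permutation p = 1), and its other comparisons gave p = 0.333 in the same exact test. The counts of the 4 genes together, most of them from Cyp2e1, made up 0.237% and 0.235% of all counts in control, 0.0706% and 0.0696% in HCC and 0.106% and 0.111% in HCC/NAC libraries.

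**Figure D3:**
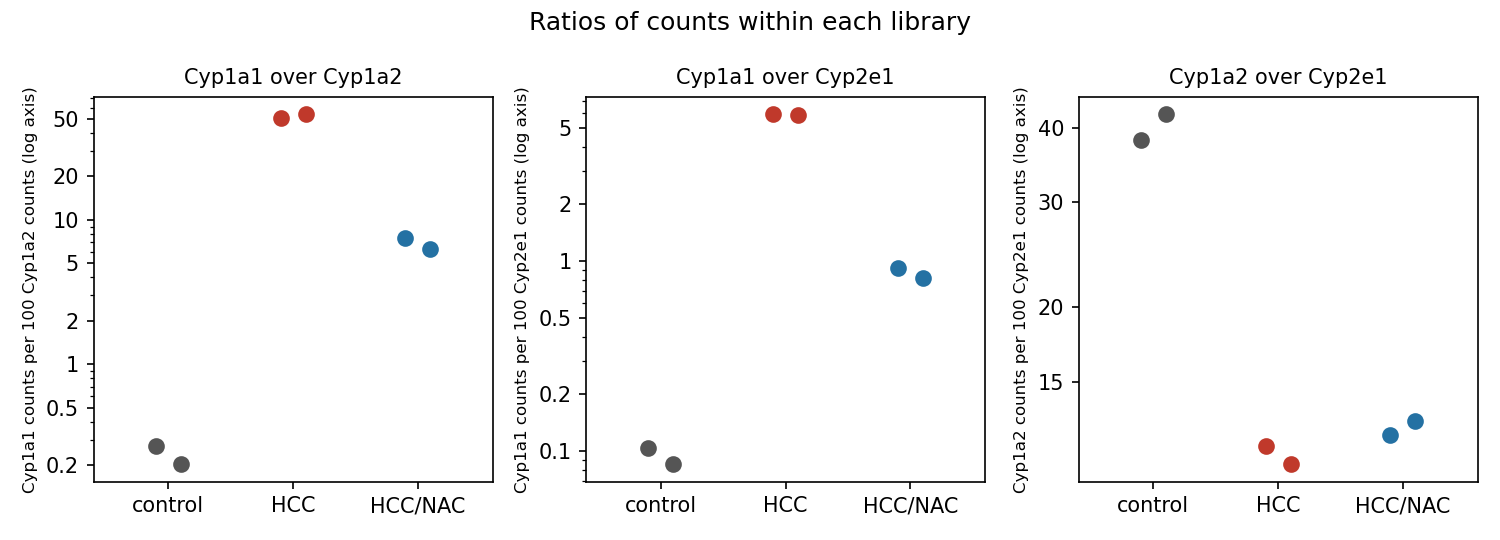
Counts of 1 gene per 100 counts of another within each library (log axes), 2 libraries per group. The ratios of Cyp1a1 to Cyp1a2 and to Cyp2e1 are highest in HCC with HCC/NAC in between, while Cyp1a2 over Cyp2e1 is at 10.9 to 12.9 in all 4 carcinogen-treated libraries and at 38.2 and 42.2 in control.

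Cyp1b1, a P450 of mesenchymal and many other cells outside the hepatocyte lineage, was near the limit of detection. The control libraries had 8 and 14 counts (0.232 and 0.423 CPM), the HCC libraries 84 and 73 (1.87 and 1.82 CPM) and the HCC/NAC libraries 2 and 21 (0.0602 and 0.646 CPM). Both HCC libraries lay above all others, whereas the HCC/NAC libraries lay on either side of the control range. Their exact Poisson 95% intervals, which cover counting error only, were 0.00729 to 0.218 and 0.400 to 0.988 CPM and did not overlap. The libraries stood apart at low counts: control replicate 1 and HCC/NAC replicates 1 and 2 held 336, 632 and 708 IDs with 1 to 5 counts, beside 2847 to 3364 in the other libraries. Control replicate 1 detected 15646 IDs and control replicate 2 19066. The part of this in the Cyp1b1 values was not tested. Of the 1541 IDs with 15 to 30 counts in HCC/NAC replicate 2, 27.6% had 2 or fewer in replicate 1. The same share was 22.9% for control replicate 1 beside replicate 2 and 2.90% for HCC replicate 1 beside replicate 2. With replicate 2 as the low library it was 24.7% in HCC/NAC, 17.1% in control and 5.04% in HCC.

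The fitted difference of Cyp1b1 between HCC and control was 5.59-fold (log2 fold change 2.48 ± 1.09 SE, 95% interval 0.09 to 4.87) and did not pass the test (adjusted p = 0.102, edgeR). It passed in 5 of 14 alternative analyses, namely DESeq2 (adjusted p = 0.0474), limma voom with a weight per library (0.0427), a fit of these 2 groups only (0.0138), and the fits without HCC/NAC replicate 1 (0.0144) or 2 (0.0229). HCC/NAC and HCC differed by -2.38 ± 1.09 on the log2 scale (SE; adjusted p = 0.133, edgeR). Without HCC/NAC replicate 2 this value was -4.88 (adjusted p = 0.0128, edgeR) and without replicate 1 it was -1.53 (adjusted p = 0.237, edgeR). Against control the HCC/NAC value was 0.11 ± 1.09 (SE, 95% interval -2.27 to 2.49; adjusted p = 0.948, edgeR), an interval that holds changes of several fold either way. Without HCC/NAC replicate 2 it was -2.39 and without replicate 1 it was 0.96, so the sign rests on which library is kept.

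Upstream of the Cyp1b1 start the AhR element core GCGTG matched 2 times in 250 bases, on opposite strands, with first bases 81 and 20 bases before the start. The 30 bases around each match are shown because Cyp1b1 is a known AhR target. They are RefSeq sequence of build GRCr8, plus strand, at chr6:21094472-21094501 and chr6:21094533-21094562, with the core in capitals (CACGC is its reverse complement).
Cyp1b1 core 1: cgtcccgcccctCACGCcccaccccttaag
Cyp1b1 core 2: agtagagggatgGCGTGtcgcctctggggt
At least 1 GCGTG match on either strand was found in 25.9% of the 33469 windows, and the share with 2 was not counted. Whether AhR binds at these matches was not tested. No TATAAA or GTTAAT was found in the Cyp1b1 window. Of the 4 genes, Cyp1a2, Cyp1b1 and Cyp2e1 were matched to the promoter table; Cyp1a1 was not.

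**Figure D4:**
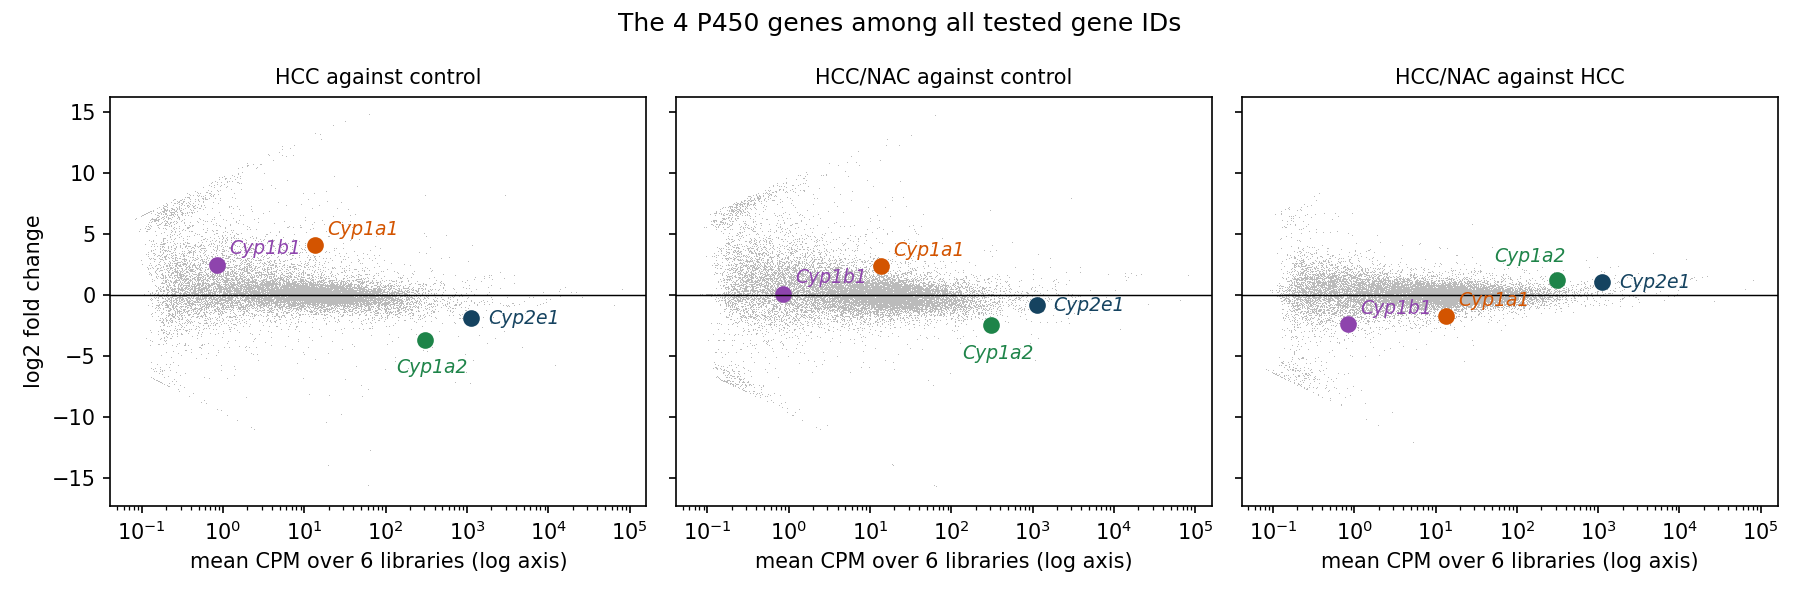
Log2 fold change against mean CPM over the 6 libraries (log axis) for all 16898 tested IDs (grey) and the 4 genes (coloured), in each comparison. Cyp1a2 lies below and Cyp1a1 above the bulk of IDs of their abundance in both comparisons with control, and their signs are exchanged in HCC/NAC against HCC.

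The IDs whose profiles were most like each gene were looked for among 7482 other tested IDs with a mean of at least 10 CPM. Likeness was the root mean square difference of log2 CPM over the 6 libraries after each gene's own mean was taken off. The nearest to Cyp2e1 was ENSRNOG00000060087, at 0.064, with 55.3 and 54.9 CPM in control, 16.2 and 16.7 in HCC and 32.0 and 35.6 in HCC/NAC. The nearest to Cyp1a2 was ENSRNOG00000032560, at 0.129, an abundant transcript with 5160 and 5140 CPM in control, 434 and 428 in HCC and 1100 and 1150 in HCC/NAC. The nearest to Cyp1a1 was ENSRNOG00000005053, at 0.140, with 2.63 and 1.81 CPM in control, 30.5 in both HCC libraries and 10.7 and 10.6 in HCC/NAC. No candidate was as near to Cyp1b1, for which the nearest, ENSRNOG00000000073, lay at 0.779. This distance includes the counting error of Cyp1b1, which had only 2 to 84 counts per library, well below the candidates. The part of that error was not tested. Between the members themselves Cyp1a2 and Cyp2e1 were the most alike at 0.830, and Cyp1a1 and Cyp1a2 the least alike at 3.21. The files do not pair these other IDs with symbols.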

How the data were processed

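The members and lists were chosen with earlier results of these data known. Per the file headers and the submitters' processing notes, which name FastQC, STAR, featureCounts and edgeR without versions, the authors deposited raw counts per Ensembl gene ID from 1 STAR alignment per library. Not given in the sources used here: genome build, annotation, strand setting, and how reads shared by paralogs such as Cyp1a1 and Cyp1a2 were counted. Duplicates and molecular identifiers are not mentioned. The Poisson intervals of CPM cover counting error only and take no account of duplicates. Those of the fold changes come from the edgeR fit and include the spread between libraries.

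The test was edgeR's (version 4.0.16, R 4.3.3) quasi-likelihood test, with a mean per group over all 6 libraries (3 residual degrees of freedom), after filterByExpr (16898 of 43360 IDs kept) and TMM scaling. All 4 members passed the filter, also by the libraries outside HCC. Standard errors come from the quasi-likelihood F statistic. The fit was tested on simulated data. Named genes were to be the 4 members, 3 genes of highest CPM per pathway list, and the ID nearest to each member in profile; without symbols (0 of 43360 IDs matched) the lists and cell type markers were not used. Promoters came from RefSeq (GRCr8). Alternatives were DESeq2 1.42.0, upper-quartile or RLE scaling, a replicate block, the compared groups only, leaving out each library, no filter, and a stricter one (4 or more libraries with CPM of 1 or more). Library totals without TMM factors, IDs with a mean of at least 10 CPM, and voom with library weights (limma 3.58.1) were added after seeing the data.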

Additional observations from a re-analysis of the deposited data

How the results depend on the processing

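All values of Cyp1a1, Cyp1a2 and Cyp2e1 kept their direction and call in all 16 alternatives. Of 186 alternative values of the 4 genes, 176 kept direction and side of the threshold, and the other 10 concern Cyp1b1. For Cyp1b1 in HCC against control the log2 fold change passed the threshold at 2.51 with DESeq2, with the compared groups only and with limma voom. Leaving out a library gave 2.11 to 3.04 (adjusted p 0.0144 to 0.404, edgeR), and -4.88 to -1.53 in HCC/NAC against HCC. In HCC/NAC against control the uncalled value of 0.11 changed sign to -0.19 with the replicate block and -0.56 with limma voom, and ranged from -2.39 to 0.96 when a library was left out, with -0.28 without control replicate 1. The stricter filter and that of 10 CPM left Cyp1b1 untested. The cause of these changes was not tested.

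Leaving out a library gave 3093 to 5075 calls over all IDs in HCC/NAC against HCC, beside 4686, with the lowest without HCC replicate 1. With the replicate block there were 5982, 7650 and 4861 calls in the 3 comparisons, beside 5883, 7807 and 4686. The replicate numbers were not treated as a pairing because the labels do not say that they mark a shared animal, batch or day. Deviations of same-numbered libraries correlated at -0.007 to 0.007 between groups. This correlation gives low-count IDs the same weight as all others, so it cannot exclude a pairing. Cyp1b1 had 2 to 21 counts in the control and HCC/NAC libraries. How much of the width of its fold change intervals is counting error was not tested.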
